A study of Mus musculus with 6 samples.

Results

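The promoters described here carried an H3K27ac peak in every library of a pigmentation study in B16 F10 cells, a mouse melanoma line. They were chosen by measured values: the 4 deposited peak lists were merged wherever peaks shared at least 1 bp, and a merged region was kept when it held a peak of each list and reached to within 1 kb of a protein-coding transcription start site (TSS) of GENCODE release M21 (mm10). This left 8994 promoters of 182956 merged regions, or 74.4% of the 12084 regions found in all 4 lists and 49.5% of the 18159 merged regions at a protein-coding promoter. Within 1 kb of these promoters lay TSSs of 9711 of 21842 protein-coding genes (44.5%). A single gene was assigned to 7766 of the promoters, and at least 2 genes were assigned to 1228.

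The chromatin came from cells kept at 100 cells per cm2 and collected on day 5. A flow cytometer separated cells of low (LP, low pigment) and high (HP, high pigment) side scatter, which were fixed for 10 minutes with formaldehyde and taken through ChIP with an antibody to H3K27ac, with 2 replicates of each population. Unsorted cells gave an IgG library for either replicate number, which had served the authors as background. B16 F10 is 1 tumour line labelled as melanocytes, and LP, HP and unsorted cells shared the line, the medium and the day and received no treatment named in the labels. Whether the replicates came from separate cultures is not given in the labels, so p-values measure the spread between these libraries, which may be technical. The libraries held 11467942 and 15353176 fragments in LP and 11483830 and 14254904 in HP, so that 1 fragment was worth 0.0651 to 0.0872 in 1000000. Throughout, 4 values in a row are LP replicates 1 and 2 followed by HP replicates 1 and 2, and a level is the scaled pileup, the number of fragments over the highest summit of the promoter per 1000000 fragments of the library (FPM).

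Histone H3 acetylated at lysine 27 is deposited by the acetyltransferases p300 and CBP and marks active promoters and enhancers. At a promoter it lies on the nucleosomes that flank the nucleosome-poor stretch where transcription starts, and many promoters with the mark are CpG islands of genes that most cells use. Genes that set a cell's identity can carry the mark over several kilobases, while in melanocytes the pigment enzyme genes are switched on by MITF, which binds the M-box, an E-box with a T before it.

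The label of the line was checked against marker genes. All 7 melanocyte markers, Mitf, Sox10, Pmel, Mlana, Tyr, Tyrp1 and Dct, had an H3K27ac promoter in every library, whereas none of 31 markers of keratinocytes, fibroblasts, T and B cells, macrophages, endothelium, neurons, hepatocytes or muscle did. Of those 31, 23 had no promoter peak in any list. Pdgfra had one in 2 lists, and Col1a1, Csf1r, Cd68, Pecam1, Kdr, Rbfox3 and Syt1 had one in 1 list. Among the melanocyte markers, the region of Pmel was shared with the cell cycle gene Cdk2. Which Mitf transcripts start at the region of Mitf was not examined.

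How sharply the rule cut can be read at its edge. The weakest calls inside were Apbb1ip, with 5, 15, 23 and 37 fragments, Prps2, with 5, 9, 13 and 21, and Cadm2, with 18, 15, 24 and 35, with a −log10 q-value of 1.303, 1.303 and 1.305 in LP replicate 1. The promoters of highest pileup left outside were Gm10722 and a second site of Gm10717, both absent in LP replicate 2, and Fam168a, which had 72, 92 and 136 fragments but no peak in LP replicate 1. LP replicate 1 was the missing list for 1303 of the 1618 promoters found in 3 lists, LP replicate 2 for 246, HP replicate 1 for 56 and HP replicate 2 for 13.

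In sequence, starts inside the promoters differed from the other protein-coding starts, which include those with a peak in 1 to 3 lists. A start counted as inside when it lay in the merged region or within 1 kb of it. The window from 250 bases before to 50 bases after each start was read from the RefSeq genome (GRCm38.p6) for 52954 distinct protein-coding starts and for the start nearest the mean summit of 8771 of the 8994 promoters (97.5%). The observed to expected CpG ratio, the count of CG times the length over the product of the C and G counts, had a median of 0.818 at the 22671 starts inside the promoters and 0.275 at the 30283 starts outside. A ratio of at least 0.6 was found at 81.2% and 18% of them. Short motifs were searched on both strands. The GC box (GGGCGG) was in 68.3% of the windows inside and 43.0% of all windows, the ETS motif (CCGGAAG) in 19.8% and 10.7%, the NRF1 core (GCATGCGC) in 5.77% and 3.25%, the CRE (TGACGTCA) in 3.51% and 2.07% and the palindrome CTCGCGAG in 2.26% and 1.11%. Matches may overlap, as neighbouring GC boxes do. The YY1 motif (AAGATGG) was in 8.22% and 6.73%. TATAAA went the other way, with 5.02% inside and 11.4% of all, as did the AP-1 motif (TGACTCA), with 2.79% and 4.32%. CCAAT, in 35.2% and 35.9%, and the M-box (TCANGTG, which contains an E-box of the form CANGTG), in 12.6% and 13.6%, were about as frequent inside as overall.

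The bases before 9 starts were chosen after their values were seen, to show how the promoters differ: a pair of the strongest (Cnbp and Pcbp1), the highest-ranked promoter of the RefSeq promoter table with CTCGCGAG in the 250 bases before its start (Mob1a), the strongest splicing factor (Srsf6), a very wide promoter (Plxnd1) and 4 pigmentation genes (Tyr, Tyrp1, Dct and Mlph). They are taken from the RefSeq table (GRCm38.p6), which had a window for 7114 of the promoters (79.1%), run 5′ to 3′ over 250 bases that end just before the start, and have matches to the motifs above in capitals. Cnbp is read from the minus strand of chr6:87851107-87851356, Pcbp1 from the minus strand of chr6:86526190-86526439, Mob1a from the plus strand of chr6:83325789-83326038, Srsf6 from the plus strand of chr2:162931258-162931507, Plxnd1 from the minus strand of chr6:115995006-115995255, Tyr from the minus strand of chr7:87493513-87493762, Tyrp1 from the plus strand of chr4:80833963-80834212, Dct from the minus strand of chr14:118052247-118052496 and Mlph from the plus strand of chr1:90914850-90915099.
Cnbp: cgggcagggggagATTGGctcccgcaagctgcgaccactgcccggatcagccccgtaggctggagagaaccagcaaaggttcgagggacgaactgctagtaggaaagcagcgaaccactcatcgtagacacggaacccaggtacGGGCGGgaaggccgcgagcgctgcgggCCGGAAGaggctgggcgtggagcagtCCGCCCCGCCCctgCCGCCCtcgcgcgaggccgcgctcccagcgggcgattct
Pcbp1: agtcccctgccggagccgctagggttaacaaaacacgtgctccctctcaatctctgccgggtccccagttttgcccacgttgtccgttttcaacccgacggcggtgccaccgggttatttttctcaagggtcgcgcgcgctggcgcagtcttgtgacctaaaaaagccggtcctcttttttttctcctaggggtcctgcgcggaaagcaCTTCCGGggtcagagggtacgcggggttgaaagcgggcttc
Mob1a: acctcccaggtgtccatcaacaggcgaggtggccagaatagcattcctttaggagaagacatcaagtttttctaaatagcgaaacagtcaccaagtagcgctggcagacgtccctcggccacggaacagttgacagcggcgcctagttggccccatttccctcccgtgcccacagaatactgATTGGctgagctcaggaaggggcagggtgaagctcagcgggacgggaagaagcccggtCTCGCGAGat
Srsf6: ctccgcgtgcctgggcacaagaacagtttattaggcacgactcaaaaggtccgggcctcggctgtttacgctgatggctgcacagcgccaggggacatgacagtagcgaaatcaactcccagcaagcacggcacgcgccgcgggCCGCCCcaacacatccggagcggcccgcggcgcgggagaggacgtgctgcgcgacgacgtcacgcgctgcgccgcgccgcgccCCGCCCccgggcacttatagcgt
Plxnd1: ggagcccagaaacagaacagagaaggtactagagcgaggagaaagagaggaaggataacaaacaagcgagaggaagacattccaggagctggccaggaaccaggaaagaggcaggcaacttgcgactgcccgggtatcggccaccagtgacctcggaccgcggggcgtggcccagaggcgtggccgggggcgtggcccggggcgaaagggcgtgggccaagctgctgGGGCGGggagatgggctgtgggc
Tyr: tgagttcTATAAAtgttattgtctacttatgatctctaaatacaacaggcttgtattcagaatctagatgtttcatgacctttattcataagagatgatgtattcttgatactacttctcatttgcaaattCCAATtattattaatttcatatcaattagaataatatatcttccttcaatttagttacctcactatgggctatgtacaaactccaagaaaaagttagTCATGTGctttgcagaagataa
Tyrp1: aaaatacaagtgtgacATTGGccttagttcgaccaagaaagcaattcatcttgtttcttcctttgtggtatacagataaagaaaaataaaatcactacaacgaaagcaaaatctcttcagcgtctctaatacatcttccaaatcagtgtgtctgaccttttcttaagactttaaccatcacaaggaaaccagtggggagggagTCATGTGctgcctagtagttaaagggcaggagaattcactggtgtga
Dct: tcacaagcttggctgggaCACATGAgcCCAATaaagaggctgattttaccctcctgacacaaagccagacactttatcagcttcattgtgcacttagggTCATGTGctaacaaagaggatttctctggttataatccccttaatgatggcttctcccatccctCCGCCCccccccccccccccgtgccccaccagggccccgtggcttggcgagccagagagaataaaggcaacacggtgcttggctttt
Mlph: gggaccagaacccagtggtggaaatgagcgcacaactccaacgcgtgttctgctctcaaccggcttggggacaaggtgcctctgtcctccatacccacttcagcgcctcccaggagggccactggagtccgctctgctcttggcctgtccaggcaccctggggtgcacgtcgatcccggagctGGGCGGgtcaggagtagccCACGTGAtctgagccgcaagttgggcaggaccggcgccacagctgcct
Srsf6 held 35 CpGs in these bases, Cnbp 28, Pcbp1 22, Plxnd1 16, Mlph and Mob1a 14, Dct 5, Tyrp1 3 and Tyr 0. Cnbp had 4 GC boxes between 106 and 39 bases before the start and an ETS motif 79 bases before it. The M-box of Tyr began 22 bases before the start, that of Tyrp1 47 bases before and that of Mlph 48 bases before, and Dct had 2, at 232 and 151 bases.

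CpG content also followed the level of the mark among the promoters themselves. In the 900 strongest, 96.1% of the windows had a CpG ratio of at least 0.6, with a median of 0.937, and in the 900 weakest 55.4%, with a median of 0.641. Across 8771 promoters, which share the same libraries and are not replicates, Spearman's rho between CpG ratio and rank was 0.380 for pileup and 0.348 for fold enrichment. Of the motifs, CTCGCGAG went with the highest levels: 183 promoters with it had a median rank percentile of 69.9 against 49.3 for the rest, and 64.8 against 48.9 when ranked by fold enrichment. It was in 4% of the 900 strongest and 0.556% of the 900 weakest. YY1 was in 13.0% and 6% of the same groups. The CCAAT box was less frequent in the strongest, 30.1%, than in the weakest, 38.9%, and more frequent in the 900 narrowest, 45.8%, than in the 900 widest, 31.3%.

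Median levels over the 8994 promoters were 3.23, 3.26, 4.88 and 8.07 FPM. Within a library the 95th percentile was 13.3, 7.00, 8.06 and 7.91 times the 5th, so LP replicate 1 spread its promoters more widely than the other 3. Each promoter was therefore given a rank percentile in each library, from 0 for the lowest to 100 for the highest level, and the mean over the 4 libraries is its rank.

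The 2 highest ranks belonged to predicted genes whose signal barely exceeded the background. The region at Gm10800 (chr2:98666586-98667285) reached 56020, 42510, 49154 and 41998 FPM at a fold enrichment over the local background of 2.62, 1.18, 2.11 and 1.30. The region at Gm10717 (chr9:3031682-3032944) reached 185, 198, 170 and 185 with a fold enrichment of 1.20 to 1.74. They were the 2 promoters with a fold enrichment under 3 in every library, and the order without them was added after seeing the data.

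The next 10 promoters in the order had a fold enrichment of 22.1 to 234 across the libraries. Cnbp, which encodes a nucleic acid-binding zinc finger protein, led with 33.2, 16.9, 25.3 and 40.3 FPM (chr6:87849576-87851770). The Wnt co-receptor gene Lrp6 followed with 38.7, 16.3, 28.9 and 31.0, and the cohesin subunit gene Rad21 with 35.9, 13.7, 27.3 and 35.6. In all 3, LP replicate 1 lay far above LP replicate 2, and the 2 populations overlapped.

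Pcbp1, for an RNA-binding protein, had 39.0, 15, 21.2 and 47.9, and Fbxo42, for an F-box protein, 24.5, 24.8, 36.3 and 45.1. Fbxo42 was the 1 promoter of these 10 in which both HP libraries lay above both LP libraries, where the share over all promoters was 73.9%. The late endosomal GTPase gene Rab7 ranged from 12.8 to 34.4, the cullin gene Cul1 from 14.2 to 31.8, the nuclear respiratory factor gene Nrf1 from 13.9 to 37.0, the adaptor protein gene Ywhaz from 13.2 to 34.8 and the ETS factor gene Elk4 from 14.3 to 29.3. LP replicate 2 was the lowest library at 9 of these 10 promoters, Fbxo42 being the exception.

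**Figure D1:**
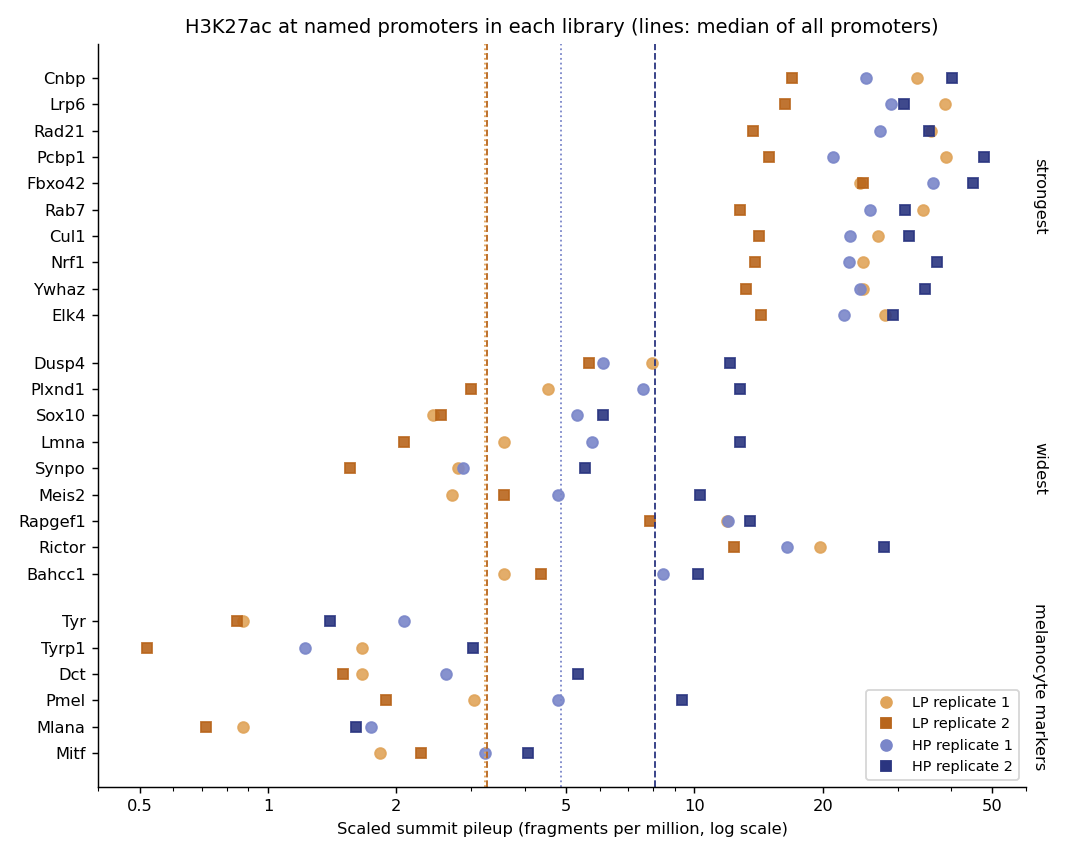
Scaled summit pileup (FPM, log scale) in each of the 4 libraries at the 10 strongest promoters with a fold enrichment of at least 3 in some library, 9 of the 10 widest promoters and the remaining melanocyte markers; vertical lines are the medians of all 8994 promoters, 3.23, 3.26, 4.88 and 8.07. The strongest lie between 12.8 and 47.9, while Tyr, Tyrp1, Dct, Mlana and Mitf lie below the median of their own library in every library.

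Fold enrichment gave a partly different order. Its 5 highest promoters, looked up after the data were seen, were Ergic2, for a protein of the compartment between endoplasmic reticulum and Golgi, Clk1, a kinase of splicing factors, Smim10l1, Gtf2ird2 and Lrp6. Ergic2 had a fold enrichment of 145, 90.3, 121 and 204, and Lrp6 of 183, 74.6, 129 and 138. Of the 10 strongest promoters by pileup, the 2 predicted genes included, 5, and of the 100 strongest 34, were among the 100 highest by fold enrichment, and across the promoters the 2 orders had a Spearman's rho of 0.881.

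The order of the promoters was much the same in LP and HP. Spearman's rho between the population ranks, each the mean of 2 libraries, was 0.935 across the 8994 promoters, and 728 of the 900 strongest in LP were among the 900 strongest in HP. Between single libraries rho was 0.868 for the LP pair and 0.790 for the HP pair, and 0.841 to 0.869 for the 4 pairs of an LP and an HP library. Single LP and HP libraries were thus ordered more alike than the 2 HP replicates were. Ranked by fold enrichment, rho followed the replicate number: 0.780 and 0.827 within replicates 1 and 2, and 0.548 for HP replicate 1 against HP replicate 2. The IgG libraries held 8701778 fragments for replicate 1 and 19358733 for replicate 2, and their part in this was not tested.

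A shift of more than 20 percentile points in the same direction in both replicates placed 64 promoters higher and 49 lower in HP than in LP. By the same measure, 156 and 137 promoters shifted between replicates 1 and 2 in both populations, so the counts between replicates were the larger ones.

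Ordered by the smaller of the 2 replicate shifts, the first upward was Alms1, for a protein of the centrosome, with 3.40, 2.15, 11.8 and 10.1 FPM and shifts of 40.4 and 37.3 points in the 2 replicates. It was followed by Cnep1r1, for a subunit of a nuclear envelope phosphatase (35.2 and 34.1), Cald1, the actin-binding caldesmon (39.9 and 32.9), Atxn7l2 (31.9 and 41.0) and the mitochondrial ribosome gene Mrpl58 (39.4 and 31.5). In all 5, picked for a rise in the same values, both HP libraries lay above both LP libraries, as at 73.9% of all promoters. Uchl3, a deubiquitinase gene, came first downward in the same order with −35.1 and −30.8 points and 3.58, 4.10, 2.70 and 6.24 FPM. Its place was lower in HP in both replicates, while its level in HP replicate 2 was the highest of the 4. Tbl2, Mtx3, the mitochondrial elongation factor gene Gfm1 and the connexin gene Gja3 followed, with shifts of −28.0 to −39.1 points, the latter that of Tbl2 in replicate 1. In all 5 the levels of LP and HP overlapped. These 10 were named for the size of their shift, which therefore has no test.

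**Figure D2:**
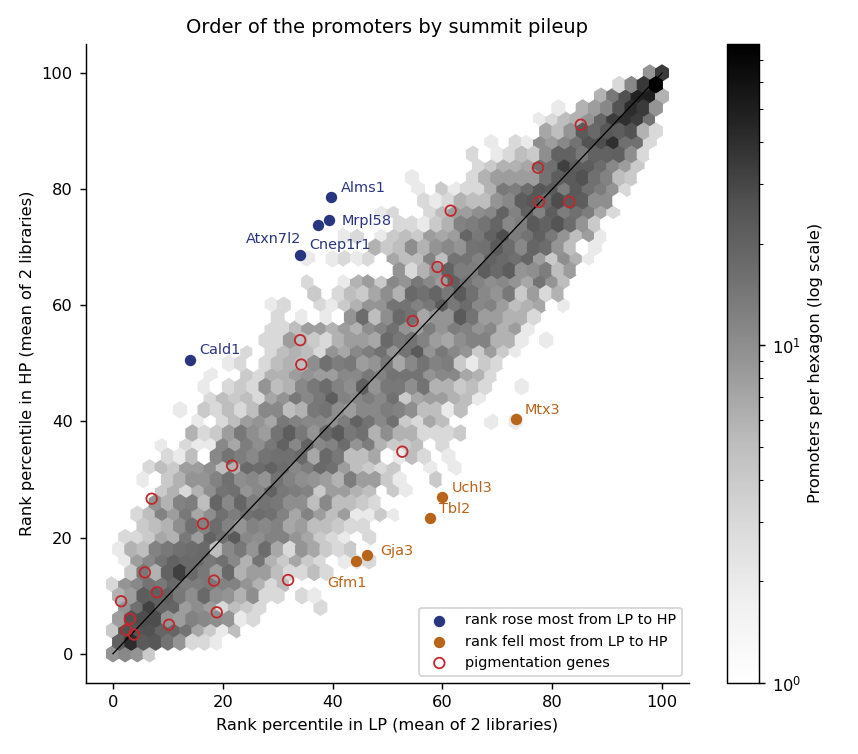
Rank percentile of each promoter in LP (x axis) and HP (y axis), each the mean of 2 libraries; grey hexagons count promoters on a log scale, filled points are the 5 promoters with the largest shift upward and the 5 with the largest shift downward, and open circles are pigmentation genes. The promoters follow the diagonal with a Spearman's rho of 0.935, and 12 of the 24 pigmentation genes lie under rank percentile 25 when averaged over the 4 libraries.

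Level also went with the chromosome. Chromosomes 1, 6 and 15, singled out after their values were seen, held 14.9% of the promoters but 60 of the 100 strongest, with 15, 27 and 18. Their median rank percentiles were 63.8, 66.3 and 63.3, and those of the other autosomes were 40.6 to 57.7. The 203 promoters on X had a median of 16.3. By fold enrichment the medians of chromosomes 1, 6 and 15 were 55.3, 53.0 and 51.4, that of X was 34.5, and 25 of the 100 highest promoters were on the 3 autosomes.

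The local background implied by the lists, taken as pileup plus 1 over fold enrichment, moved with these medians. No constant was subtracted, so this quotient stands in for the background and is not its value. Relative to all promoters of a library it was 1.18 to 1.29 on chromosome 6, 1.26 to 1.31 on chromosome 15, 1.13 to 1.21 on chromosome 1 and 0.515 to 0.716 on X. Over 20 chromosomes, the rank by pileup and the background had a Spearman's rho of 0.829, and the rank by fold enrichment and the background 0.308. The part of this background in the ranks was not tested. Ranking within each chromosome left the agreement of LP and HP at a rho of 0.931.

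**Figure D3:**
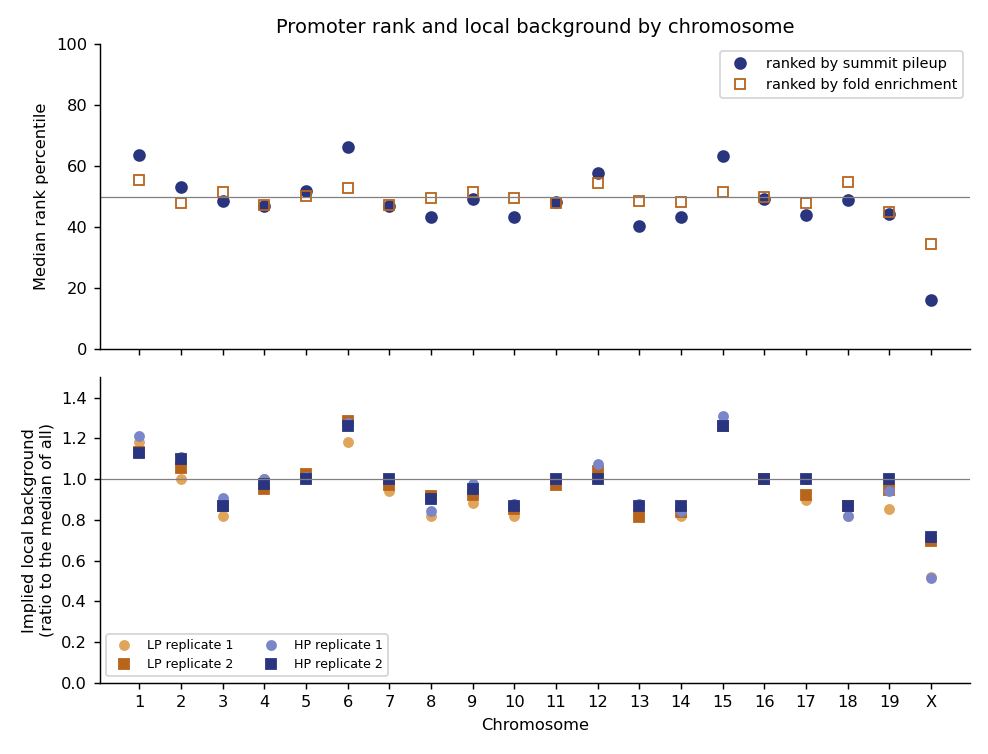
Upper panel, median rank percentile of the promoters on each chromosome by summit pileup (filled circles) and by fold enrichment (open squares); lower panel, median implied local background of the same promoters in each library as a ratio to the median of all promoters. Chromosomes 1, 6 and 15 are high and X is low in both panels by pileup, and the spread of the autosomes narrows to 45 to 55.3 by fold enrichment.

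Width was measured as the bases called within a promoter, summed over all its peaks in a library and averaged over the 4 libraries. Its median was 1084 bp, with 533 bp at the 5th and 2299 bp at the 95th percentile, and by library 711, 1014, 1146 and 1462 bp. Only 164 promoters (1.82%) exceeded 3000 bp. Wider promoters tended to be stronger, with a Spearman's rho of 0.489 between rank and width, but the extremes were mostly different promoters: 240 of the 900 widest were among the 900 strongest.

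Dusp4, for a phosphatase that switches off MAP kinases, was the widest, in a region of 12429 bp (chr8:34803815-34816243). Its called bases, 6380, 8243, 10624 and 12219 bp, were spread over 2 to 6 peaks per library. Its level of 7.94, 5.67, 6.10 and 12.1 put it at rank percentile 76.7. Plxnd1, a semaphorin receptor gene, had a mean width of 7784 bp and rank percentile 66. Neither belonged to the 900 strongest.

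Sox10, the neural crest factor that acts upstream of Mitf, came next (chr15:79158828-79169937) with 1449, 7202, 8591 and 10846 called bp in 2 to 7 peaks per library. Its level was 2.44, 2.54, 5.31 and 6.10, and its rank percentile 40.1. LP replicate 1 had by far the fewest called bases, and in level both HP libraries lay above both LP libraries, as at 73.9% of all promoters. Lmna, which encodes A-type lamins, had 6983 bp, the actin-associated gene Synpo 6589 bp, the homeobox gene Meis2 6552 bp, the guanine nucleotide exchange factor gene Rapgef1 6550 bp, the mTOR complex gene Rictor 6458 bp, and Bahcc1 6159 bp. Rapgef1 and Rictor were among the 900 strongest, with rank percentiles of 91.2 and 99.0, and Synpo stood at 26.9.

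**Figure D4:**
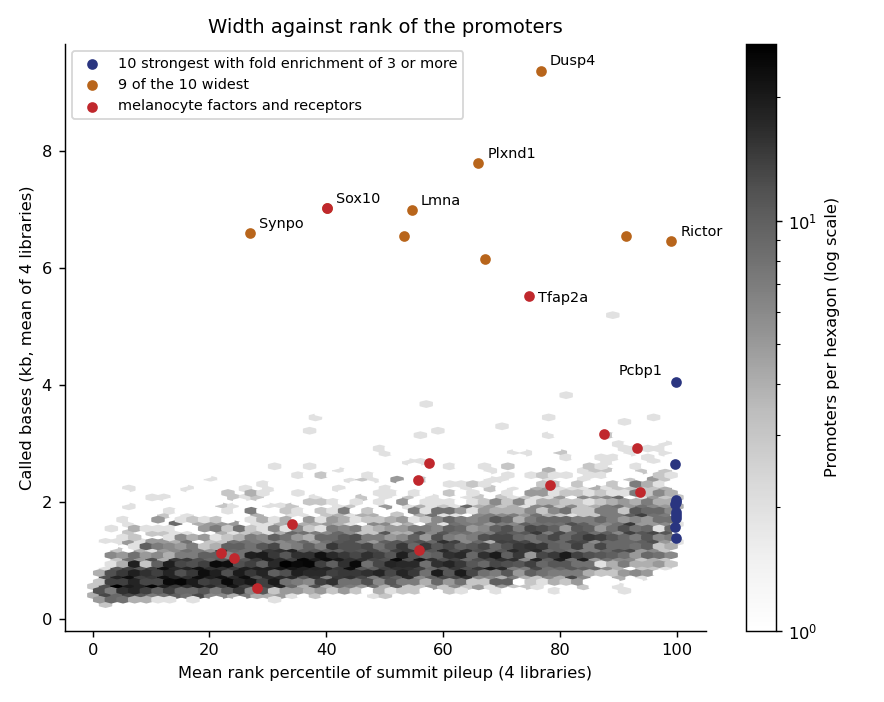
Called bases per promoter (kb, mean of 4 libraries) against mean rank percentile of summit pileup; grey hexagons count promoters on a log scale, and coloured points are the 10 strongest with fold enrichment of 3 or more, 9 of the 10 widest, and the melanocyte factors and receptors, which include Sox10. These 9 hold 6159 to 9366 bp at ranks from 26.9 to 99.0, and the strongest promoters, at the right edge, stay under 3000 bp except Pcbp1 at 4053 bp.

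Genes of basic cell functions had such a promoter in differing shares. Of the cytosolic ribosomal protein genes 74 of 76 did, of splicing factor genes 48 of 52, of translation factor genes 59 of 68, of respiratory chain genes 69 of 80, of chaperone genes 25 of 26 and of cell cycle genes 29 of 30, against 44.5% of all protein-coding genes. The shares were lower for proteasome subunits, 31 of 39 (79.5%), V-ATPase subunits, 16 of 22 (72.7%), and replication-dependent histones, 39 of 67 (58.2%). At the other end were the olfactory receptors, with 2 of 1133, Olfr552 and Olfr543, and the Hox genes, with 10 of 39. These lists were put together with earlier results of the data known, so their counts and medians are descriptions.

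Splicing factors had the highest median rank percentile, 82.7, against 50.8 for all genes. Srsf6, for an SR protein, was their strongest with 25.8, 9.64, 16.6 and 28.2, Sf3a2, in a region shared with Plekhj1, lay closest to the median, and Snrpd2, which shares its region with Qpctl, was lowest with 0.959 to 1.89. Chaperones had a median of 78.1, from Hspa4 (10.8 to 23.0) down to Hsp90aa1 (1.05 to 2.26). Ranked by fold enrichment, the splicing factors remained at 78.5 and the chaperones came to 63.5.

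Genes of the acetylation machinery had a median rank percentile of 73.2, led by Ep300, which encodes the p300 acetyltransferase that writes the mark, with 27.8, 10.6, 20.7 and 32.3. The lowest of them was Hdac3, for a histone deacetylase, in a region shared with Rell2, with 0.872 to 3.30. Stress response genes lay at 73.0, or 63.88 by fold enrichment, with all 20 present. Their highest was Atf4, the central factor of the integrated stress response, at 13.5, 10.0, 12.5 and 24, and their lowest Ddit4 at 2.01 to 7.02.

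Translation factors had a median of 70.3, ribosomal proteins 67.2, proteasome subunits 63.3, V-ATPase subunits 62.1, and RNA polymerase, Mediator and TFIID subunits 52.8. Eif5 was the strongest translation factor with 12.9 to 26.6 and Eif2ak2, a kinase that halts translation, the lowest with 0.912 to 2.10. Rpl32 led the ribosomal proteins with 11.4, 11.5, 16.4 and 21.7, and Rpl10, on X, was lowest with 0.872, 0.651, 0.784 and 2.74. Psma3 and Psmb6 were the ends of the proteasome list, Atp6v1h and Atp6v0e2 of the V-ATPase list, and Polr2m and Polr2k of the polymerase list.

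Pigmentation genes and the 2 olfactory receptors had the lowest medians, 24.7 and 2.91. Also below the median of all genes were DNA replication, 37.1, with Mcm3 highest and the polymerase gene Pola1, on X, lowest, and the replication-dependent histones, 38.7, from the region of Hist1h2bb and Hist1h3c down to Hist1h4d. The histone promoters also had the lowest median width of the lists, 814.5 bp. Zinc finger genes of the Zfp series, 224 of 365 with a promoter, had a median of 47.5, between Zfp706 and Zfp712. Respiratory chain genes (51.3, from Atp5g2 to Ndufs5), cell cycle genes (51.3, from Foxm1, in a region shared with Rhno1, to Ccnd3), cytoskeletal genes (52.2, from Actg1 to Flna), glycolysis genes (49.3, from Eno1 to Pgk1) and Hox genes (49.9, with Hoxb13 lowest) lay near that median. Ranked by fold enrichment, these lists came to 53.34, 56.9, 42.85, 38.96 and 42.75 in the same order, against 50.54 for all genes. The lowest gene was on X in 5 of the 21 lists: Rpl10, Flna, Pgk1, Pola1 and Tfe3.

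Lists of similar level differed in width. The broadest were the melanocyte transcription factors and receptors, with a median of 2288 bp (width percentile 94.9), and the AP-1 and immediate early genes, with 2182 bp (93.8). Their median rank percentiles were only 55.9 and 62.5, or 55.56 and 53.62 by fold enrichment. Klf4 was the strongest immediate early promoter with 9.33, 5.08, 10.0 and 13.8, and Ier3, which shares its region with Flot1, the weakest with 1.74 to 4.70. Glycolysis genes, at 1782 bp, and stress response genes, at 1624 bp, were also broad, while respiratory chain genes, at 961 bp, and Zfp genes, at 964.5 bp, were narrower than the 1108 bp of all genes.

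**Figure D5:**
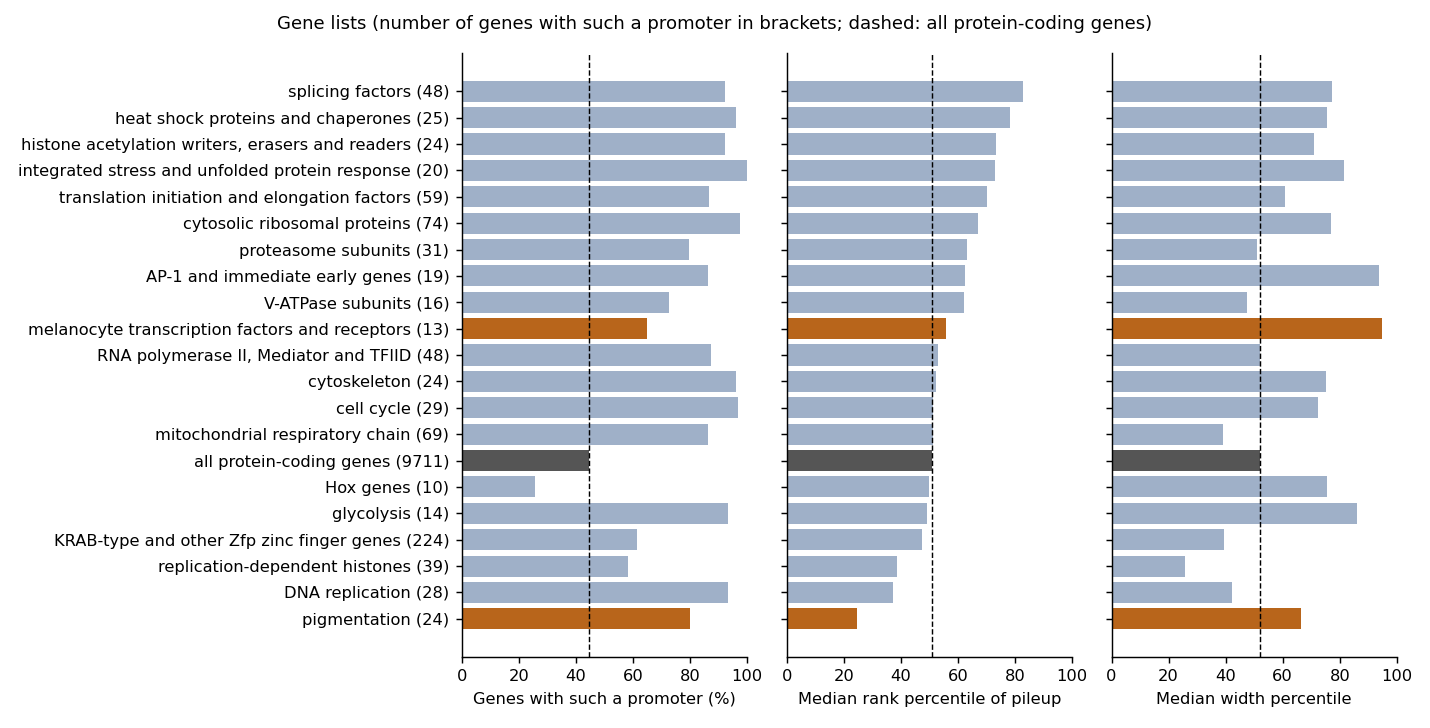
For each gene list with at least 10 genes at such a promoter, the share of its genes with one (left, %), the median rank percentile of summit pileup (middle) and the median width percentile (right); the dashed lines mark all protein-coding genes at 44.5%, 50.8 and 52.0, and orange bars are the melanocyte lists. Pigmentation genes have the lowest median rank, 24.7, with a width percentile of 66.5, and melanocyte factors the highest width percentile, 94.9.

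The pigmentation genes had a low level of the mark at promoters of more than median width in the mean of the 4 libraries. A promoter in every library was found for 24 of 30, with a median rank percentile of 24.7 by pileup and 30.8 by fold enrichment and a median width of 1316 bp. That width came from HP: in each LP library most of the 24 were narrower than the median of all promoters, 711 and 1014 bp. In each HP library most of them were wider than that median, 1146 and 1462 bp. Mlana, a melanosome protein gene, was the lowest with 0.872, 0.716, 1.74 and 1.61 FPM. Tyr, the rate-limiting enzyme of melanin synthesis, had 0.872, 0.847, 2.09 and 1.40, that is 10, 13, 24 and 20 fragments. In both, the HP libraries lay above the LP libraries, as they did at 73.9% of all promoters.

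Tyrp1, which encodes a melanin synthesis enzyme next to tyrosinase, had 1.66, 0.521, 1.22 and 3.02, and its populations overlapped. Dct, the dopachrome tautomerase, had 1.66, 1.5, 2.61 and 5.33 over 2378 called bp. Pmel, the fibril protein of melanosomes, had 3.05, 1.89, 4.79 and 9.33 in a region shared with Cdk2, to which the signal may equally belong. Dct and Pmel both had their HP libraries above their LP libraries, which again was so at 73.9% of all promoters.

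Among the other pigmentation genes, Gpnmb, a melanosomal glycoprotein gene, was wide, 3872 bp, and high, at rank percentile 80.5 with 7.41, 4.56, 7.58 and 18. The melanosome transport genes differed: Myo5a, the motor, stood at rank percentile 80.4, Mlph, the linker, at 16.9 and Rab27a, the GTPase, at 3.56. Hps5, in a region shared with Gtf2h1, was the highest of the list with 11.2, 5.02, 9.14 and 25.5, and Hps4, in a region shared with Srrd, stood at rank percentile 77.7. Bloc1s1, closest to the list's median, shared its region with Rdh5. The copper transporter gene Atp7a and the melanosomal receptor gene Gpr143, both on X, were at 15.5 and 13.0. The remaining ones were Dtnbp1 at 68.9, Hps1 at 62.9, Gnaq at 62.6, Ap3b1 at 56.0, Lyst at 43.8, Hps3 at 42.1, Slc24a5 at 27.1, Rab38 at 9.93, Rab32 at 9.33 and Car14 at 5.26.

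These promoters were poorer in CpG and held the M-box more frequently than all genes with such a promoter, which is given as a description. At the start nearest the summit, 12 of the 24 had a CpG ratio of at least 0.6 (50%), against 85.8% of the 9478 genes with such a promoter and a window. The M-box was in 13 of the 24 windows (54.2%), against 12.4% of the 9478. In the RefSeq table it was found for Tyr, Tyrp1, Dct, Slc24a5, Mlph, Atp7a, Hps1, Hps3, Hps5 and Bloc1s1. A match is a run of letters, TCANGTG with any base at N, and does not show binding.

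Of the melanocyte transcription factors and receptors, 13 of 20 had a promoter in every library, and 8 of the 13 exceeded width percentile 90: Sox10, Tfap2a, Tcf7l2, Usf2, Pax3, Tfeb, Zeb2 and Creb1. Tfap2a, a neural crest factor, had 5517 called bp at rank percentile 74.7. Pax3, an activator of Mitf, had 2672 bp with levels of 2.01, 4.82, 6.01 and 10.3. Creb1, the cyclic AMP response factor, was the highest in level at rank percentile 93.7, followed by Usf2 at 93.1 and Tcf7l2 at 87.6. Mitf was neither wide nor strong at the promoter scored here (chr6:97806618-97807959), with 1042 bp and 1.83, 2.28, 3.22 and 4.07. Which Mitf transcripts start at this promoter was not examined, so the values do not describe other promoters of the gene. Usf1 stood at 55.9, Tfeb at 55.7, Zeb2 at 78.3, Erbb3 at 34.1, Snai2 at 28.1 and Tfe3 at 21.9.

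The summits lay just inside the genes. In the 7864 promoters whose starts all pointed one way, the median distance from the nearest TSS to the highest summit was +128, +161, +155 and +148 bp, positive being downstream, with a mean of 148 ± 14.4 bp (SD of the 4 libraries). The summit was downstream of the TSS in 77.7% to 82.4% of these promoters, and 65.2% to 72.2% had it between 50 and 500 bp downstream. Between −150 and +50 bp it was found in 21.1% in LP replicate 1 and in 12.4% to 14.1% in the others. The summits of 1 promoter in 2 libraries were a median of 49 to 61 bp apart. A divergent pair of genes was present at 943 promoters, which were wider than those of a single gene, 1244 against 1057 bp, at similar median ranks of 47.5 and 49.8.

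Finally, the level in HP was compared with that in LP. Because a peak in every list had been required, these values cover only promoters above the calling limit in all 4 libraries. Over the promoters the log2 of HP over LP had a median of 0.89, with 0.32 and 1.55 at the 5th and 95th percentiles, and it was above 0 at 8942 promoters (99.4%). Within replicate 1 the median was 0.51 and within replicate 2 it was 1.29, while HP replicate 2 exceeded HP replicate 1 by 0.67. Both HP libraries lay above both LP libraries at 6646 promoters (73.9%), where the share over all 12084 regions was 74.8%, and below at 6 (0.0667%), where it was 0.141%. Once each library was centred on its median over those regions, the counts were 845 (9.40%, against 12.1%) and 1552 (17.3%, against 17.1%). More cells with the mark and more of it per cell cannot be told apart in such pooled chromatin.

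In limma over the 12084 regions, with Benjamini-Hochberg adjustment, 248 of the 8994 promoters (2.76%) were higher in HP, where 4.01% of all regions were, and 0 were lower, where 0% were. At an unadjusted p under 0.05 the limma count was 2873 higher (31.9%, against 36.2%) and 0 lower. With the replicate number as a block, 44 promoters (0.489%) were called, against 0.728% of all regions. Without HP replicate 1 limma called 4925 of the 8994 promoters and 6930 of the 12084 regions. Without LP replicate 1, LP replicate 2 or HP replicate 2 it called 0, with 629, 1010 and 1235 promoters higher at an unadjusted p under 0.05, among 1083, 1722 and 2015 regions. After centring it called 0, with 91 promoters higher and 155 lower at that p, among 177 and 275 regions.

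The 3 weakest deciles of the promoters by mean rank held 53, 78 and 48 of them and the 3 strongest deciles 0, a description, since the rank includes the levels that enter the ratio. Spop, the substrate adaptor of a ubiquitin ligase, had the largest difference, with 0.785, 0.521, 1.74 and 7.02 FPM and a log2 ratio of 2.45 ± 0.54 (SE). Its limma adjusted p was 0.0208, or 0.0327 with the block. That SE is pooled over all regions and does not reflect the spread between the replicates of Spop itself. Next came Nmral1 (2.40), the heterochromatin protein gene Cbx5 (2.37), Washc3 of the endosomal WASH complex (2.36) and Wdr95 (2.34). In all 5, picked for the ratio of the same values, both HP libraries lay above both LP libraries, as at 73.9% of all promoters. Centred on the library medians, their limma adjusted p was 0.791 to 0.949.

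Of the pigmentation promoters, 2 of 24 were called, Mlph with 1.22, 0.977, 2.70 and 6.17 and a limma adjusted p of 0.0405, and Car14 with 0.698, 0.782, 1.74 and 3.51 and an adjusted p of 0.0474. Over all promoters the share called was 2.76% and over all regions 4.01%. With the replicate block these limma adjusted p-values were 0.0539 and 0.0607, and after centring both were 1. Both HP libraries lay above both LP libraries at 17 of the 24, and at 11 of the 13 melanocyte factors and receptors, of which 0 were called, where the share was 73.9% over all promoters and 74.8% over all regions. The median log2 ratio was 1.04 in the pigmentation list and 1.07 among the factors and receptors, against 0.90 over all genes. The ratio varied with level, however. In the weakest decile of the promoters by mean rank it was 0.98, in the next decile 1.06 and in the strongest 0.62. The pigmentation list had a median rank percentile of 24.7, and no comparison at equal level was made. By list the median log2 ratio ran from 0.60 for replication-dependent histones to 1.18 for Hox genes.

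How far the populations differed varied with the strength of the promoter in replicate 1 more than in replicate 2. This too is a description, since the mean rank that set the deciles includes the levels that enter the ratios. In the weakest decile the median log2 ratio was 0.71 within replicate 1 and 1.18 within replicate 2. In the strongest decile it was −0.05 and 1.27. LP replicate 1 exceeded LP replicate 2 there, with medians of 12.6, 7.69, 12.3 and 18.9 FPM, whereas in the weakest decile the medians were 0.959, 1.17, 1.66 and 2.74.

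Compared with the 2020 regions called in all libraries and lying more than 3 kb from any annotated start, the promoters stood higher by 1.62 and 1.47 on the log2 scale in LP and by 1.42 and 1.49 in HP. This gap, which does not depend on the scaling to library size, differed by −0.10 between HP and LP (exact two-sided permutation test over the 4 libraries, p = 0.667, the smallest possible being 0.33). Of the distal regions, 173 of 2020 (8.56%) were called higher in HP by limma, and the difference from the share of the promoters was not tested.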

How the data were processed

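H3K27ac ChIP-seq was available for LP and HP, with 2 libraries each. The authors trimmed reads with Trimmomatic 0.33, aligned them to mm10 with Bowtie2 2.5.1 and called peaks in each library with MACS (3.0.0b1 per the file headers) at a q-value cutoff of 0.05 with the IgG library that shared the replicate number as control, keeping duplicates. The deposited pileup is an unscaled signal, the fragments covering the summit. The deposited fold enrichment is a ratio to the local background at the summit, and the deposited −log10 q-value belongs to the same summit. The deposited narrowPeak score repeats the q-value and was not used further. All deposited columns of values were mapped to a sample.

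From these lists, peaks were merged across libraries, the highest summit pileup of each merged region was divided by the fragments of the library and multiplied by 1000000 (FPM), and ranks ran from 0 to 100 over the promoters of a library. Values over the 12084 regions of all 4 lists were compared on the log2 scale with limma 3.58.1 in R 4.3.3 (Benjamini-Hochberg adjusted p at most 0.05), without a term for the replicate. In that fit limma used a single variance for all regions, so every log2 ratio had the same SE, 0.54. The spread between a promoter's own replicates therefore did not enter its p-value. Per the labels, equal amounts of DNA were used within a replicate set, so the fit with the replicate number as a block is given beside the calls. The difference between replicates 2 and 1 in LP and that in HP had a correlation of 0.0427 over the promoters. The scripts were tested on simulated data. Pileups count fragments and not independent molecules, and 1 fragment was worth 0.0651 to 0.0872 FPM.

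Genes were named by rule: the 10 strongest and 10 widest promoters, the highest, the lowest and the gene closest to the median of each list, the 5 largest rank shifts in each direction, the 5 largest ratios called by limma, 3 promoters on each side of the rule's edge, and all pigmentation and melanocyte factor genes. Of these, 2 genes are not reported here. The promoters and the 22 gene lists were chosen with earlier results of these data known. Alternatives covered the merge, the TSS window, the scaling, the rank measure and each library left out. The starts of all transcripts, a fold enrichment floor of 3 and ranks within chromosomes were added after seeing the data. Promoter composition was computed with Python 3.11.15, with chromosome 18 left out.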

Additional observations from a re-analysis of the deposited data

How the results depend on the processing

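A reciprocal overlap of the highest peaks in place of 1 shared base left 3618 promoters instead of 8994, and leaving out a library or a replicate gave 9043 to 10959. The number of promoters that limma called different in HP and LP, 248, became 44 with the replicate block, 10 with a trended variance and 5 with scaling by fragments times fragment length. It was 0 after centring, after quantile normalization (unadjusted p under 0.05: 106 higher and 124 lower) and with the mean of the summits (2138 higher), and ran from 0 to 4925 with 1 library left out, where the lone library was assumed to vary like the others. The calls of Spop, Nmral1, Cbx5, Washc3 and Wdr95 were lost in the settings that called 0. Fits without both libraries of replicate 1 or of replicate 2 had no residual degrees of freedom and were not run. Centring turned the median log2 of HP over LP from 0.89 to −0.12. The HP to LP difference of the promoter to distal gap was −0.21 to 0.014 with 1 replicate or library left out, against −0.10, the positive value being that without replicate 1. The rank agreement of LP and HP was 0.841 to 0.869 with 1 replicate left out. The median width was 1588 bp by merged length, and the summit lay 219.8 bp downstream of the TSS of the longest transcript. Among the values that answer a comparison, 52 alternatives stayed within their limits, 15 moved and 2 reversed, and the cause of the changes was not tested. With 2 libraries a group, an exact test of single values cannot go below p = 0.33.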
